A study of Rattus norvegicus with 9 samples.

Results

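Immediate early genes and heat shock genes were followed in rat back skin treated with imiquimod, with or without epidural lidocaine. The set was 10 genes chosen by symbol. Egr1, Egr2, Egr3, Fos, Fosb, Jun, Junb and Atf3 encode transcription factors of the immediate early response, and Hspb1 and Hspa1b encode stress-induced chaperones. The deposited tables held rows for 5 of the 10, namely Egr1, Egr2, Egr3, Hspb1 and Hspa1b, among 6197 gene IDs in either table. All 5 stood in the table that sets imiquimod against untreated skin, which has 6025 rows. The table that sets imiquimod with lidocaine against imiquimod has 399 rows and held 0 of the 10.

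The 9 libraries were made from whole back skin of wild-type Sprague Dawley rats weighing 250 g, with 3 libraries in each group. Imiquimod activates Toll-like receptor 7 and is applied to skin as a model of psoriasis. The IMQ+lidocaine rats had imiquimod for 6 days and, from day 3, epidural injections of 1% lidocaine, a local anaesthetic, for 4 days. The IMQ rats had imiquimod alone for 6 days, the untreated rats (labelled WT) had no treatment, and all skin was taken on day 7. Rats given a vehicle cream, epidural saline or lidocaine alone are not among these samples. Separate animals are not stated in the labels, so a p-value here covers the spread between samples, which may be technical.

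Immediate early genes are transcribed within minutes of a growth factor, cytokine, calcium or mechanical signal, without new protein synthesis. Kinase cascades reach factors already bound at their promoters, such as serum response factor at CArG boxes and CREB at cAMP response elements. Their products then set the expression of slower target genes, and many of these products are short-lived. In skin the response is known from wounding, hair follicle growth and epidermal differentiation. Heat shock genes are driven by heat shock factors, which bind repeated GAA units when unfolded proteins accumulate, and the small heat shock protein Hspb1 is also present in differentiating keratinocytes.

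Values are normalized read counts, scaled by the authors so that libraries can be compared. Differences are imiquimod minus untreated of log2(normalized count + 1), are given with limma's standard error, and were called at an adjusted p under 0.05. The rows of the imiquimod table carried 15947423 to 22929894 reads per library, and the fewest reads behind any value of the 5 genes were 311, for Egr3. The smallest difference in either table was 1.00, so the deposited rows had been chosen for a difference of group means in these same libraries. Adjusted p-values over such rows are too small, and a gene without a row has no value here. Of the 6025 rows, 87.8% were called in either direction, 40.8% as lower and 47.0% as higher with imiquimod, and in 86.7% the values of the groups did not overlap.

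All 5 listed genes were lower in imiquimod skin than in untreated skin. Egr2 had the largest difference of the 5, with a mean 4.16 times as high in untreated skin, and Hspa1b the smallest, with a mean 2.27 times as high in untreated skin. The calls were 5 lower, 0 higher and 0 not past the threshold, where 40.8% of all rows were called lower. The median difference over the 5 genes was -1.69, against -1.85 over the 2699 rows with a lower mean in imiquimod skin. Between 13.8% (Hspa1b) and 60.9% (Egr2) of the lower rows had a smaller fall. Since whole skin was ground, fewer cells of a type and less RNA per cell cannot be told apart in any of these values.

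**Figure D1:**
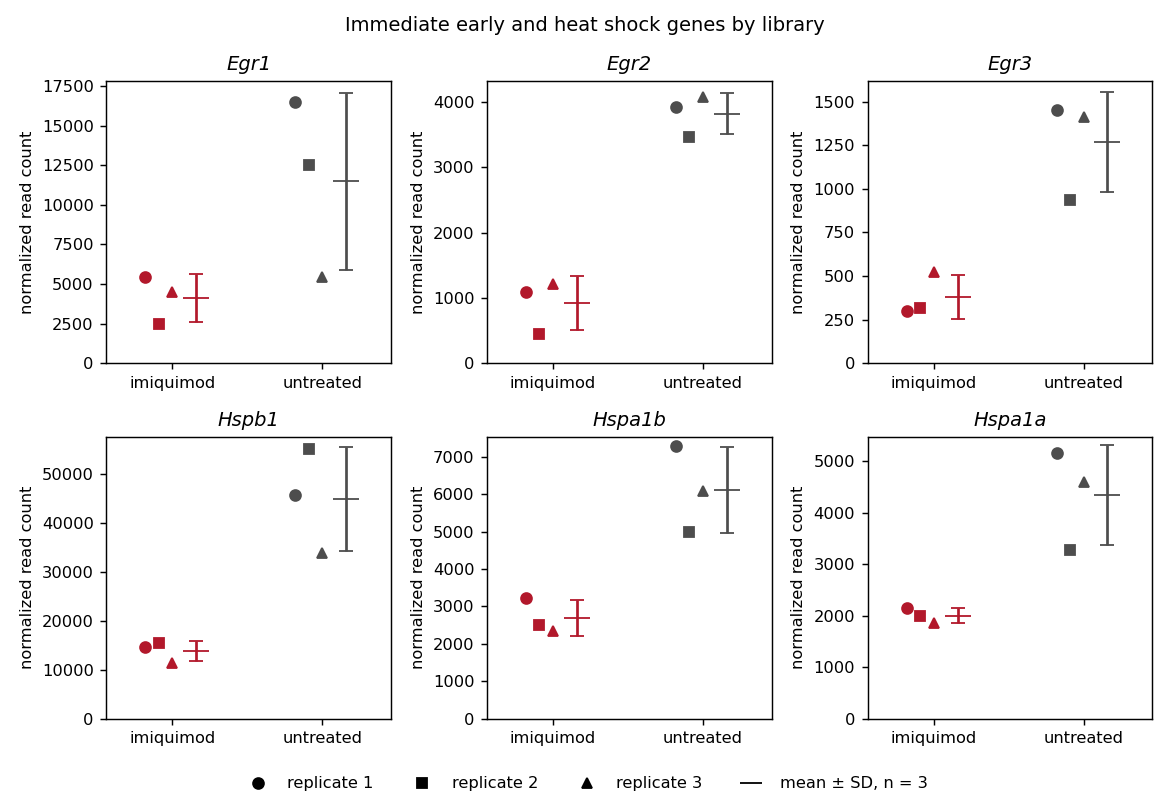
Normalized read counts (linear axes from 0) of Egr1, Egr2, Egr3, Hspb1, Hspa1b and the Hspa1b copy Hspa1a in the 3 imiquimod libraries (left, red) and the 3 untreated libraries (right, grey), with marker shapes for replicate numbers and bars for mean ± SD. Untreated values lie above imiquimod values in every panel, but for Egr1 untreated replicate 3 (5449) is level with imiquimod replicate 1 (5445).

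Egr2 (ENSRNOG00000000640), also called Krox20, is a zinc finger transcription factor required for myelination by Schwann cells and, in the mouse, a marker of hair shaft progenitors. It had 1088, 451.4 and 1219 normalized counts in the imiquimod libraries, against 3922, 3467 and 4077 in the untreated libraries. The groups were far apart, with the lowest untreated value 1.51 log2 units above the highest imiquimod value. Imiquimod replicate 2 was the low one of its group. The means were 919 ± 411 in imiquimod skin and 3822 ± 317 in untreated skin (SD, n = 3 each). Egr2 fell, with a difference of -2.18 ± 0.44 (SE, limma adjusted p = 0.00561).

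Egr3 (ENSRNOG00000017828), a close relative induced by the same signals and known for its role in muscle spindles and T cell tolerance, had 301.4, 314.7 and 524.0 normalized counts with imiquimod, against 1451, 938.0 and 1414 in untreated skin. No values overlapped, and the gap between the groups was 0.84 log2 units. Its means were 380.0 ± 125 in imiquimod skin and 1268 ± 286 in untreated skin (SD, n = 3 each). Egr3 fell by 1.76 ± 0.35 (SE, limma adjusted p = 0.00563).

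Egr1 (ENSRNOG00000019422), the best known Egr factor, induced by growth factors and wounding, had 5445, 2445 and 4493 normalized counts with imiquimod, against 16524, 12501 and 5449 without treatment. Untreated replicate 3 was as low as imiquimod replicate 1, and only 0.0011 log2 units separated the groups. Before scaling the order of these libraries was the reverse, with 6252 reads in imiquimod replicate 1 and 5377 in untreated replicate 3. The means were 4128 ± 1533 in imiquimod skin and 11491 ± 5606 in untreated skin (SD, n = 3 each), and the untreated libraries spread over a range of 3.03 times, against 1.18 times for Egr2. The difference was -1.41 ± 0.53 (SE, limma adjusted p = 0.0429). The call did not hold without imiquimod replicate 2 (adjusted p = 0.122), imiquimod replicate 3 (0.0789), untreated replicate 1 (0.125) or untreated replicate 2 (0.113). It held without imiquimod replicate 1 (0.0475) and without untreated replicate 3, where the difference was -1.88 (0.0160).

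The promoter windows of Egr1 and Egr2 are shown because both hold matches to motifs of the immediate early response. A link between these motifs and the falls of the genes was not tested. The windows are RefSeq sequences of assembly GRCr8, from 250 bases before to 50 bases after the annotated start, read 5′ to 3′ on the strand of the gene. Egr1 lies at chr18:26736828-26737127 (plus strand) and Egr2 at chr20:21054392-21054691 (minus strand). Capitals mark CArG boxes and the letters CGTCA, which are the cAMP response element core TGACG read on the opposite strand.
Egr1: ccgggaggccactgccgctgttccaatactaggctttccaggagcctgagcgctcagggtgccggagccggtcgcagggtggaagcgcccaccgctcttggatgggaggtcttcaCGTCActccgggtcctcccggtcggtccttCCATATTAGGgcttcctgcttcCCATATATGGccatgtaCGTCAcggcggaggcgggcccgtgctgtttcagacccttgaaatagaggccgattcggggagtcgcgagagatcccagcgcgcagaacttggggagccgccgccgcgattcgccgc
Egr2: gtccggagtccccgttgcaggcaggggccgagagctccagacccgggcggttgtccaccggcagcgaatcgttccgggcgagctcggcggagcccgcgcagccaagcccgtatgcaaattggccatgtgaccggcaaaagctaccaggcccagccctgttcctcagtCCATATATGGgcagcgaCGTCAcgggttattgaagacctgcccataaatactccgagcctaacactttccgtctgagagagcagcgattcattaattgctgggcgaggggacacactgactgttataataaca
Egr1 held CArG boxes at -105 to -96 and at -83 to -74, and TGACG matches at -135 to -131 and at -66 to -62, counted from the annotated start. Egr2 held a CArG box at -83 to -74 and a TGACG match at -66 to -62, the same distances as in Egr1. The box at this position reads CCATATATGG in both genes. Over 33469 rat promoter windows of the same length, searched on both strands, 1.64% held a CArG box, 21.2% held TGACG and 0.272% held both. TGACG is also part of the full palindrome TGACGTCA, found in 1.83% of the windows and in neither Egr window. Of the 49 genes with a window in a list of 61 other immediate early and feedback genes, 4 (8.16%) held a CArG box. In a list of AP-1 and CREB/ATF genes, 0 of 31 with a window did.

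The other immediate early factors of the set, Fos, Fosb, Jun, Junb and Atf3, had no row in either table and were not analysed here. Fos and Fosb pair with Jun and Junb to form the AP-1 factor, whose Jun subunits restrain psoriasis-like inflammation in mouse epidermis, and Atf3 is induced by cell stress. Windows were at hand for Fosb and Junb among them. Neither window held a CArG box, and that of Junb held a TGACG match at -155 to -151. A window shows the bases near its annotated start alone, so motifs elsewhere are not seen.

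Hspb1 (ENSRNOG00000023546), a small heat shock protein that holds unfolded proteins and protects actin filaments, had 14553, 15360 and 11382 normalized counts with imiquimod, against 45639, 54946 and 33878 without treatment. Every untreated library was above every imiquimod library, with a gap of 1.14 log2 units. The means were 13765 ± 2103 in imiquimod skin and 44821 ± 10558 in untreated skin (SD, n = 3 each). Hspb1 fell by 1.69 ± 0.31 (SE, limma adjusted p = 0.00401), the lowest p of the 5 genes.

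The window of Hspb1, chr12:26432252-26432551 (minus strand) in the same assembly, is shown for its pair of heat shock motif matches. Capitals mark GAANNTTC, a head-to-head pair of the GAA unit bound by heat shock factors.
Hspb1: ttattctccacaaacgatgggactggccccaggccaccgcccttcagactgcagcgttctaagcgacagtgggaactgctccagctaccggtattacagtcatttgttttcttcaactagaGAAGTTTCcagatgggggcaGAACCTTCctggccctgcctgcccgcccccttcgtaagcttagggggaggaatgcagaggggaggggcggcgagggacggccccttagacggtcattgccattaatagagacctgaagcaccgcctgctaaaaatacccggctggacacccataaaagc
The matches lie at -129 to -122 and at -109 to -102. GAANNTTC was found in 8.59% of all windows and the tail-to-tail form TTCNNGAA in 8.77%, and 15.9% held at least 1 of them. Of the 40 genes with a window in a list of 52 other heat shock proteins and chaperones, 16 (40%) held either form.

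Hspa1b (ENSRNOG00000050647) encodes inducible HSP70, which refolds damaged proteins. It had 3239, 2494 and 2354 normalized counts with imiquimod, against 7291, 4980 and 6088 in untreated skin. The groups did not overlap, with a gap of 0.62 log2 units. The means were 2696 ± 476 in imiquimod skin and 6120 ± 1156 in untreated skin (SD, n = 3 each), and the difference was -1.18 ± 0.29 (SE, limma adjusted p = 0.0110).

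Hspa1a (ENSRNOG00000045654), not in the set, is a near-identical copy of Hspa1b, and the sources used here do not say how reads shared by the copies were counted, so their separate values are uncertain. Hspa1a had 2149, 1988 and 1862 normalized counts with imiquimod, against 5150, 3275 and 4592 without treatment, a difference of -1.09 ± 0.29 (SE, limma adjusted p = 0.0133). Hspa1b took 60.1%, 55.6% and 55.8% of the summed counts of the pair in imiquimod libraries, and 58.6%, 60.3% and 57.0% in untreated libraries. Summed, the pair had 4695 ± 614 normalized counts in imiquimod skin and 10458 ± 2102 in untreated skin (SD, n = 3 each), a difference of -1.14 ± 0.29 (SE, limma adjusted p = 0.0115). The window of Hspa1a held neither heat shock motif. It covers the bases near an annotated start alone, so elements elsewhere are not seen.

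**Figure D2:**
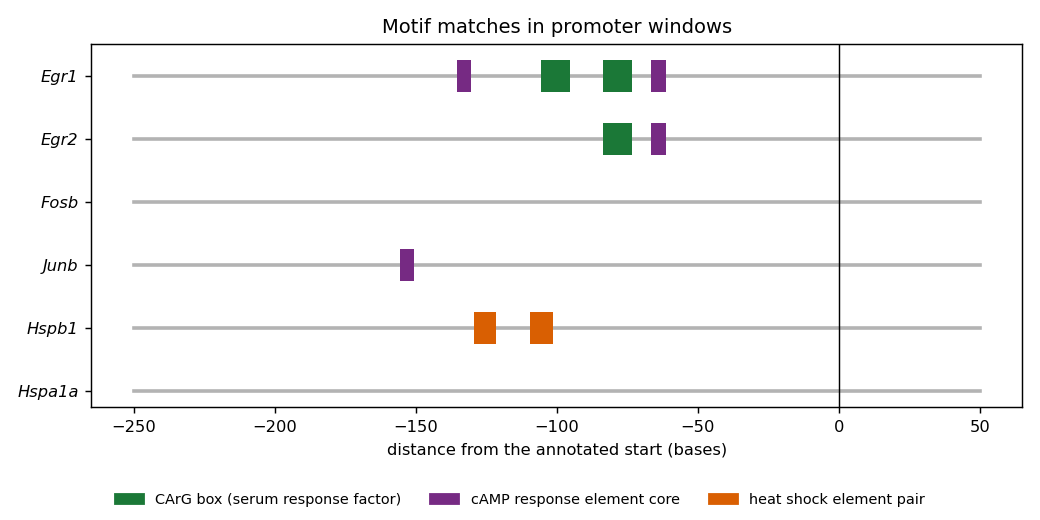
Motif matches on either strand in the promoter windows of 6 genes, with distance from the annotated start in bases on the horizontal axis and coloured blocks for CArG boxes, TGACG and GAANNTTC. Egr1 and Egr2 share a CArG box at -83 to -74 and a TGACG match at -66 to -62, and of the 6 windows only that of Hspb1 has GAANNTTC.

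The 5 genes did not share a lowest or a highest library. Among the imiquimod libraries, replicate 2 was lowest for Egr1 and Egr2, replicate 1 for Egr3, and replicate 3 for Hspb1 and Hspa1b. Among the untreated libraries, replicate 1 was highest for Egr1, Egr3 and Hspa1b, replicate 2 for Hspb1 and replicate 3 for Egr2. Averaged over the 5 genes and relative to the untreated mean, the log2 level was -1.46, -1.99 and -1.48 in the imiquimod libraries and 0.25, -0.05 and -0.20 in the untreated libraries. The plot of differences with a library left out shows how far each call leaned on a library.

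**Figure D3:**
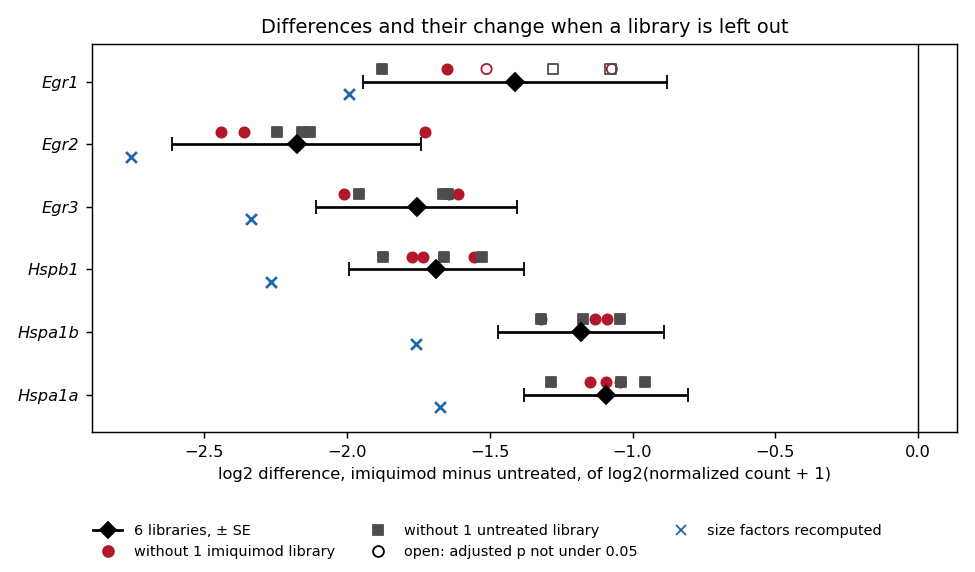
Log2 difference, imiquimod minus untreated, of the 5 genes and of Hspa1a, with black diamonds and bars for the 6 libraries ± SE, circles and squares for fits without 1 imiquimod or 1 untreated library (open where the adjusted p was not under 0.05), and crosses for recomputed size factors. All points lie below 0, and Egr1 alone has open symbols, 4 of its 6.

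For Egr2, Egr3, Hspb1 and Hspa1b, no left-out library ended the call, and the highest adjusted p was 0.0221, 0.0241, 0.0183 and 0.0417 in that order of genes. Size factors recomputed from the listed rows shifted the median of all rows by -0.577 on the log2 scale, and they put Egr1 at -1.99, Egr2 at -2.76, Egr3 at -2.33, Hspb1 at -2.27 and Hspa1b at -1.76. The rows were chosen for a difference, 3326 with a higher and 2699 with a lower mean in imiquimod skin. Size factors from them follow that split, so they cannot test the deposited scaling.

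Genes whose pattern over the 6 libraries was closest to the average pattern of the 5 genes were found by the root mean square of log2 differences, each gene taken relative to its own untreated mean. Among genes averaging at least 100 normalized counts, the 6 closest were Trim59 (0.091), Wnt5a (0.107), Afmid (0.109), Fzd6 (0.111), Fam19a5 (0.115) and Map7 (0.132). Their differences ran from -1.69 (Wnt5a) to -1.52 (Afmid). The 5 genes, which unlike the 6 were not picked for closeness, lay at 0.333 (Hspb1), 0.337 (Egr3), 0.393 (Hspa1b), 0.440 (Egr1) and 0.496 (Egr2) from their own average.

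The wider response was read from 6 lists of related genes with 217 symbols besides the 10 genes, of which 67 symbols had 68 rows in the imiquimod table. Of these 68 rows 33 were called higher, 30 lower and 5 neither, where 47.0% of all 6025 rows were called higher and 40.8% lower. The split was thus near that of the whole table. Their median difference was 1.11, where the median of all 6025 rows was 1.15. With recomputed size factors the same lists had 19 rows called higher and 30 lower, where all rows had 1991 and 2569. Jund, Fosl1, Ddit3, Hspa1a and Ier3 are each in several lists, so the counts of single lists below are not separate from each other. The heat map of single libraries shows both directions within most lists.

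**Figure D4:**
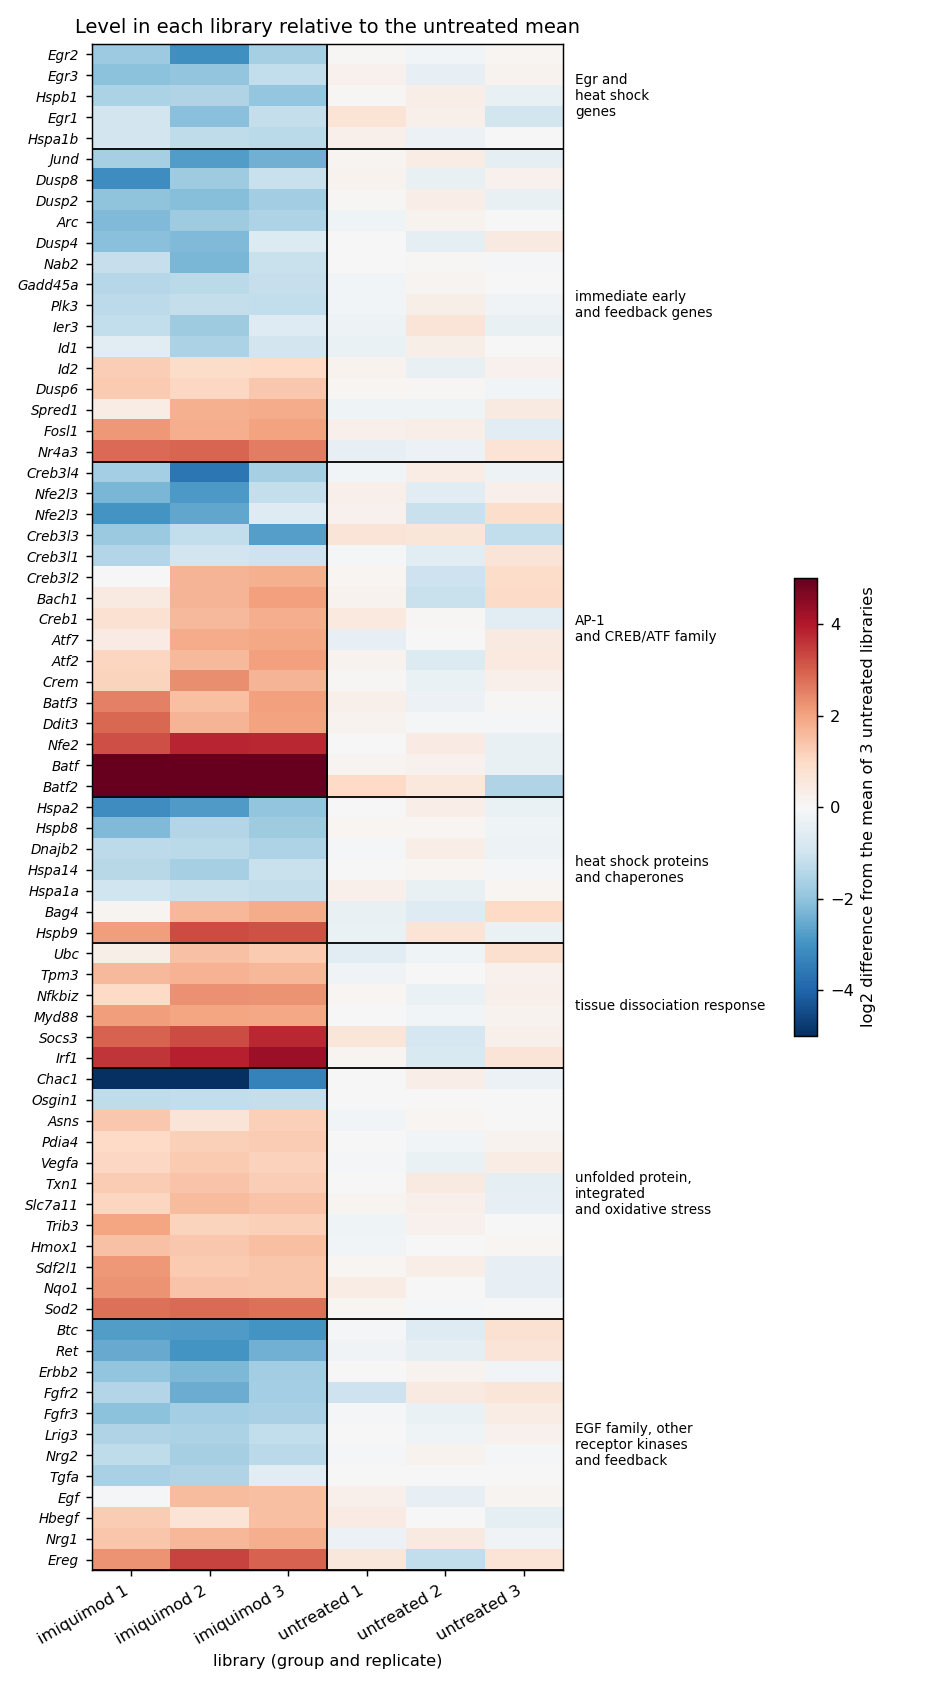
Log2 level of each listed gene in each library relative to the mean of the 3 untreated libraries, imiquimod libraries on the left, with red above and blue below the untreated mean. Values beyond the ends of the scale take the end colours, genes of several lists appear once, and the top block holds Egr2, Egr3, Hspb1, Egr1 and Hspa1b, all below the untreated mean in every imiquimod library.

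Among immediate early and feedback genes, 15 of 61 symbols were listed, 10 of them lower and 5 higher with imiquimod. Their median was -1.24, where 40.8% of all rows were called lower and 47.0% higher. Of the lower genes, Id1 lost its call in 5 of 6 fits without a library, and Dusp4 and Ier3 in 4 of 6. Of the higher genes, Spred1 lost its call in 4 of 6 (limma adjusted p up to 0.114), and its groups overlapped. Dusp2, a nuclear phosphatase that switches off MAP kinases, had 661 ± 98.8 normalized counts in imiquimod skin and 2615 ± 607 in untreated skin (SD, n = 3 each), and it fell by 1.97 ± 0.30 (SE, limma adjusted p = 0.0023). Arc, a synaptic immediate early gene also found in migrating dendritic cells of mouse skin, had 58.4 ± 13.4 in imiquimod skin and 209 ± 28.2 in untreated skin and fell by 1.84 ± 0.30 (0.0028). Gadd45a, a growth arrest and DNA damage gene, had 1031 ± 101 in imiquimod skin and 2547 ± 223 in untreated skin and fell by 1.31 ± 0.25 (0.0049). Nab2, a corepressor that binds Egr proteins and is itself an Egr target, was chosen after its values were seen. It had 1963 ± 755 in imiquimod skin and 5296 ± 321 in untreated skin and fell by 1.52 ± 0.39 (0.0121).

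The rises in that list were led by Nr4a3, an orphan nuclear receptor, with 319 ± 38.7 normalized counts in imiquimod skin and 48.6 ± 22.0 in untreated skin (SD, n = 3 each), a difference of 2.77 ± 0.37 (SE, limma adjusted p = 0.0014). Fosl1, a Fos-family AP-1 subunit, had 684 ± 82.6 in imiquimod skin and 176 ± 55.4 in untreated skin and rose by 2.00 ± 0.34 (0.0033). Dusp6, a cytoplasmic ERK phosphatase, rose by 1.23 ± 0.25 (0.0061), and Id2, an inhibitor of basic helix-loop-helix factors, by 1.05 ± 0.29 (0.0159). With recomputed size factors neither Dusp6 nor Id2 was called, and the list had 2 rises.

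AP-1 and CREB/ATF factors went both ways. Of 35 symbols, 17 were listed with 18 rows, 10 higher, 6 lower and 2 not past the threshold, with a median of 1.40, where 47.0% of all rows were called higher and 40.8% lower. Jund, a Jun subunit and the listed Jun family gene, had 4372 ± 1804 normalized counts in imiquimod skin and 20878 ± 6024 in untreated skin (SD, n = 3 each) and fell by 2.29 ± 0.41 (SE, limma adjusted p = 0.0039). Batf, an AP-1 factor of lymphocytes and dendritic cells, had 1168 ± 343 in imiquimod skin and 24.2 ± 5.21 in untreated skin and rose by 5.51 ± 0.35 (0.00011). Batf2 had 169, 512 and 1111 reads in imiquimod libraries, against 4, 3 and 0 in untreated libraries, so its untreated level rests on few reads. Nfe2, a factor of blood cell lineages, rose by 3.60 ± 0.33 (0.00036), and Ddit3, the stress factor CHOP, by 2.19 ± 0.37 (0.0033). Nfe2l3, a CNC-family factor with 2 rows, fell by 2.12 ± 0.50 (0.0096) in the row with more reads. Its other row had 5, 6 and 32 reads in imiquimod libraries, against 42, 18 and 76 in untreated libraries, and the groups overlapped. The call of that row (limma adjusted p = 0.0439) did not hold in 4 of 6 fits without a library (adjusted p up to 0.128). Creb3l4, a membrane-bound factor processed in the Golgi, fell by 2.33 ± 0.59 (0.0117). Creb3l1 was at -1.15 ± 0.38 (0.0288), a call that did not hold in 5 of 6 fits without a library (adjusted p up to 0.0678).

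Heat shock proteins and chaperones besides Hspb1 and Hspa1b had 7 of 52 symbols listed, 5 lower, 1 higher and 1 not past the threshold, with a median of -1.38, where 40.8% of all rows were called lower and 47.0% higher. Hspa2, an HSP70 known from germ cells, had 504 ± 218 normalized counts in imiquimod skin and 3007 ± 720 in untreated skin (SD, n = 3 each) and fell by 2.63 ± 0.39 (SE, limma adjusted p = 0.0021). Hspb8, a small heat shock protein that works with Bag3 in autophagy, had 5338 ± 1320 in imiquimod skin and 18432 ± 2107 in untreated skin and fell by 1.81 ± 0.30 (0.0030). Dnajb2, a co-chaperone of HSP70 in neurons, fell by 1.41 ± 0.28 (0.0054), and Hspa14, a ribosome-associated HSP70, by 1.38 ± 0.27 (0.0053). Hspa1a, given above, was the other gene of the list that fell. Hspb9 was the listed gene called higher, from 5, 11 and 13 reads in imiquimod libraries, against 0, 1 and 0 in untreated libraries. The remaining symbols of the list had no row, so most of the chaperone system has no value here.

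Genes of the unfolded protein, integrated and oxidative stress responses had 13 listed rows, 11 called higher and 2 lower, with a median of 1.36, where 47.0% of all rows were called higher and 40.8% lower. Sod2, the mitochondrial superoxide dismutase, rose by 2.78 ± 0.24 (SE, limma adjusted p = 0.00030), Nqo1, a quinone reductase, by 1.70 ± 0.37 (0.0075) and Hmox1, haem oxygenase, by 1.45 ± 0.25 (0.0032). Chac1, which degrades glutathione, went the other way, with 1540 ± 1537 normalized counts in imiquimod skin and 35074 ± 7651 in untreated skin (SD, n = 3 each), a difference of -4.95 ± 0.69 (0.0016). Osgin1, an oxidative stress growth inhibitor, fell by 1.24 ± 0.24 (0.0048). With recomputed size factors 3 of the 11 rises were called, and Nqo1 was not among them.

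Growth factor receptors and their ligands are known to signal through ERK, and a list of 20 such genes held 17 of the EGF family and its feedback and the receptor kinases Ret, Fgfr2 and Fgfr3. Of the list 12 were in the table, 8 lower, 3 higher and 1 not past the threshold, with a median of -1.43, where 40.8% of all rows were called lower and 47.0% higher. Without Ret, Fgfr2 and Fgfr3 the counts were 5 lower, 3 higher and 1 not past the threshold, with a median of -1.22. Erbb2, a co-receptor of the family, had 955 ± 163 normalized counts in imiquimod skin and 3767 ± 395 in untreated skin (SD, n = 3 each) and fell by 1.99 ± 0.27 (SE, limma adjusted p = 0.0015). Btc, the ligand betacellulin, fell by 2.87 ± 0.40 (0.0017), and the receptor kinases Ret and Fgfr3 fell by 2.64 ± 0.38 (0.0019) and 1.78 ± 0.31 (0.0034). Ereg, the ligand epiregulin, rose by 2.85 ± 0.61 (0.0068) and Nrg1, the ligand neuregulin, by 1.62 ± 0.32 (0.0053). Hbegf, heparin-binding EGF, was at 1.16 ± 0.37 (0.0250), a call that did not hold in 4 of 6 fits without a library (adjusted p up to 0.0767).

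Handling is a second reading of these genes. Immediate early and heat shock transcripts are known to rise when tissue is cut, warmed or digested before RNA is fixed. Per the labels' protocols, the skin was snap frozen and ground before extraction with TRIzol, and no enzymatic dissociation is described. The time between death and freezing is not given for any sample, nor is shaving of any group. A difference in handling between the groups cannot be told apart from imiquimod in this design. A list of 53 other genes known from the response to tissue dissociation had 9 listed symbols. With imiquimod 5 were higher, 3 lower and 1 not past the threshold, with a median of 1.68. Of all rows 47.0% were called higher and 40.8% lower. The 5 Egr and heat shock genes of the set, all lower, are not in these counts or this median. Of the 9, those lower were Jund, Hspa1a and Ier3. The call of Ier3 (-1.22 ± 0.43 SE, limma adjusted p = 0.0358) did not hold in 4 of 6 fits without a library (adjusted p up to 0.102). The rises were led by Irf1 (3.90 ± 0.44), Myd88 (2.00 ± 0.25), Socs3 (3.34 ± 0.47) and Tpm3 (1.68 ± 0.25), of which Irf1, Myd88 and Socs3 also act in interferon, Toll-like receptor and cytokine signalling.

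Markers of several cell types moved with the groups. For scale, 40.8% of all 6025 rows were called lower, 47.0% higher and 87.8% in either direction. Each of the 7 hair follicle markers fell, and their summed level was 3617 to 110408 normalized counts in imiquimod libraries, against 753190 to 1638171 in untreated libraries. The sums were 31543, 3617 and 110408 in imiquimod replicates 1 to 3, where Egr1 and Egr2 were lowest in replicate 2, Egr3 in replicate 1 and Hspb1 and Hspa1b in replicate 3. They were 1125429, 1638171 and 753190 in untreated replicates 1 to 3. Of these, replicate 1 was highest for Egr1, Egr3 and Hspa1b, replicate 2 for Hspb1 and replicate 3 for Egr2. Of 6 fibroblast markers 3 were listed. Col1a1 and Col3a1 were lower, and Pdgfra had a higher mean but did not pass (1.14 ± 0.45 SE, limma adjusted p = 0.0512). The sums were 357493 to 369659 with imiquimod, against 1652918 to 3747587 without, and Pdgfra made up at most 7577 in any library. All 6 listed leukocyte markers of 7 rose, with sums of 71202 to 89993 with imiquimod, against 1867 to 4031 without. Of 7 keratinocyte markers 3 were listed, Krt14 higher, Krt15 lower and Krt1 not past the threshold, and the sums overlapped at 353341 to 799135 with imiquimod, against 400855 to 497570 without. The 3 listed endothelial markers of 4 were higher, Casq1 of 8 skeletal muscle markers was lower, and Rgs5 of 5 smooth muscle and pericyte markers was not past the threshold. Some of these calls did not hold in fits without a library, namely Krt15, Cdh5 and Casq1 in 4 of 6 fits each, Krt25 in 3 of 6 and Kdr in 2 of 6 (adjusted p up to 0.0968). The difference of Krt25 ran from -9.30 to -4.25 over those fits. The part of these cell types in the fall of the Egr and heat shock genes was not tested.

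Lidocaine could not be compared for any of the 10 genes, since none had a row in the table of imiquimod with lidocaine against imiquimod. Its other rows show what was listed near them. Of the 217 related symbols 8 were listed, and limma called 0 of 3 with a higher mean and 1 of 5 with a lower mean in IMQ+lidocaine skin, where 11.0% of the 399 rows were called higher, 21.1% lower and 32.1% in either direction. At an unadjusted p under 0.05, 2 of the 3 higher ones and 3 of the 5 lower ones passed. The median over the 8 was -1.05, against -1.17 over all 399 rows. The values of the groups did not overlap in 71.9% of the 399 rows, Cyr61 and Hspa4l among them. The imiquimod libraries are the same in both tables, so the comparisons share them.

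Nfe2l3 was the gene called, with 109 ± 29.3 normalized counts in IMQ+lidocaine skin, 374 ± 225 in IMQ skin and 1489 ± 411 in untreated skin (SD, n = 3 each). The difference of IMQ+lidocaine minus IMQ was -1.63 ± 0.55 (SE, limma adjusted p = 0.0465), and the call did not hold in any of the 6 fits without a library (adjusted p up to 0.138). Cyr61, an immediate early matricellular gene now named Ccn1, had 2831, 3938 and 7555 normalized counts with IMQ+lidocaine, against 1971, 2261 and 2282 with IMQ, a difference of 1.02 ± 0.50 (SE, limma adjusted p = 0.0841). The metallothioneins Mt2A and Mt1, which bind zinc and respond to metals and glucocorticoids, differed by 1.37 ± 0.49 (0.0534) and 1.15 ± 0.48 (0.0674). The HSP110-family chaperone Hspa4l had 303.5, 232.4 and 139.0 normalized counts with IMQ+lidocaine, against 434.6, 548.5 and 528.9 with IMQ, a difference of -1.22 ± 0.48 (0.0654). Ret, Fgfr3 and Ereg also had lower means in IMQ+lidocaine skin and did not pass (adjusted p of 0.0829, 0.0697 and 0.0833). Recomputed size factors shifted the median of all 399 rows by 0.708. With them the split of called rows was 124 higher and 30 lower, against 44 and 84 as deposited, Mt2A, Mt1 and Cyr61 were called higher, and Nfe2l3 was not called. The 399 rows were chosen for a difference, 268 with a lower and 131 with a higher mean in IMQ+lidocaine skin. Size factors from them follow that split, so the change in calls cannot test the deposited scaling. That scaling could not be rechecked on genes without a row.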

How the data were processed

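RNA was measured in 9 samples, grouped by title. Per the submitters' processing notes bcl2fastq, STAR 2.5.3a and DESeq2 were used. The sources used here give no genome build, annotation, counting tool, strand setting or rule for selecting rows. The authors deposited 2 tables of log2(normalized count + 1) per library. The IMQ libraries have the same values in both (largest difference 4.97e-09), so the libraries share 1 scaling. After removal of the log, all values up to 2000 reads were whole multiples of 1 read within 0.01, which gave the reads. Depth is known for listed genes alone.

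Each table was tested by itself with limma 3.58.1 in R 4.3.3 (lmFit, eBayes, no block), with Benjamini-Hochberg adjustment over all its rows. The test was also run on simulated data whose rows were not chosen for a difference. That run therefore cannot show the error rate over the chosen rows here. Tables were made in python 3.11.15 (pandas 2.3.3, numpy 2.4.6). Libraries of a group differed beyond sampling noise, with a chi-square of 124 to 682 per degree of freedom. The genes of the set and the lists were chosen with earlier results of these data known. Named by rule are the 10 genes, in each of the 6 related lists the 4 genes called with the smallest adjusted p per direction, and the 6 with the most similar pattern. A gene of several lists may be described under another list. Genes such as Hspa1a, Nab2, the cell type markers and the uncalled genes of the lidocaine comparison were named outside this rule. Alternatives were other thresholds and adjustments, pseudocounts of 0.1 and 10, a mean of at least 100, recomputed size factors, limma-trend, a replicate block and each library left out. An adjustment over 23154 protein-coding genes and the sum of Hspa1a and Hspa1b were added after seeing the data. Promoter windows were at hand for 5 of the 10 genes. The tables hold no gene coordinates. The nerve marker list is not reported here.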

Additional observations from a re-analysis of the deposited data

How the results depend on the processing

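Over 116 differences of single genes and their alternatives, 1449 of 1736 values kept direction and side of the threshold, 266 lost the call, 21 gained it and 0 changed sign. Rescaling could not turn a sign, since every difference was at least 1.00 and the median shifts were -0.577 and 0.708. The number of the 5 Egr and heat shock genes called was 5 as reported, 3 at a threshold of 0.01, 0 under Bonferroni adjustment (limma, with 5 at an unadjusted p under 0.05) and 4 to 5 without a library. Egr1 was also lost with a pseudocount of 0.1 (adjusted p = 0.0522) and with adjustment over all protein-coding genes (0.165). That adjustment kept Hspa1b at 0.0422.

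In the imiquimod table, 5287 rows were called, 3280 at 0.01, 244 under Bonferroni and 4412 to 5408 without a library. Related genes called higher were 33, with 1 under Bonferroni, 19 with recomputed size factors and 29 to 37 without a library. Related genes called lower were 30, with 18 at 0.01, 0 under Bonferroni (30 at an unadjusted p under 0.05) and 23 to 27 without a library.

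In the lidocaine table, 128 rows were called, 13 at 0.01, 7 under Bonferroni, 2 over all protein-coding genes, 56 with a pseudocount of 0.1, 0 with a pseudocount of 10 (286 at an unadjusted p under 0.05), 0 of 203 with a mean of at least 100 (118 unadjusted) and 22 to 147 without a library. The low end came without IMQ replicate 1 (22), and 34, 49, 58 and 62 without IMQ+lidocaine replicate 3, IMQ+lidocaine replicate 2, IMQ replicate 3 and IMQ replicate 2. Related genes called higher were 0 (2 of 3 at an unadjusted p under 0.05), with 3 under recomputed size factors and 1 with limma-trend. The 1 related gene called lower, Nfe2l3, was called under no alternative but limma-trend, and the count of such genes was otherwise 0, with 0 to 5 of the 5 at an unadjusted p under 0.05. Without a library it was 0 to 1, the 1 being Hspa4l without IMQ+lidocaine replicate 1. The cause of these changes was not tested. No count of the 10 genes could be given for lidocaine, since none is listed.

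Deviations from the group means correlated at -0.2322 to -0.0138 between same-numbered replicates, and at -0.2285 to 0.3394 between different-numbered ones. The numbers thus gave no sign of pairing. With 3 libraries per group, this cannot show that the samples were unpaired. With a replicate block the calls were 4756 and 92 in the tables, 4 of the 5 genes (Egr1 at adjusted p = 0.0555), and 29 higher and 27 lower related genes with imiquimod. With lidocaine the block gave 0 and 0. Restricting motif searches to bases before the start gave 1.5% of windows with a CArG box, against 1.64%.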
